A study of Rattus norvegicus with 6 samples.

Results

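The genes described are 10 members of the matrix metalloproteinase (MMP) system: the proteases Mmp2, Mmp3, Mmp9, Mmp13, Mmp14 and Mmp19 and their tissue inhibitors Timp1, Timp2, Timp3 and Timp4. They were taken by gene symbol from the 32623 genes of the deposited table, where each symbol stands on 1 row. The samples are ventricular cardiomyocytes cultured from Sprague-Dawley rats of postnatal day 1 to 3. In 3 libraries (siMettl3) the cells had received a small interfering RNA against Mettl3 for 24 h, and in 3 libraries (siNC) a control RNA for the same time. All 6 cultures were then exposed to lipopolysaccharide (LPS), the bacterial endotoxin, for 6 h, so every value below belongs to LPS-treated cells and none is a response to LPS. The cells came from 1 isolate pooled from several rats. The p-values therefore measure the spread between these cultures, which may be technical.

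MMPs are zinc-dependent endopeptidases that cut collagens, elastin, fibronectin and other proteins outside the cell. Most are secreted as inactive precursors and are switched on by other proteases, whereas TIMPs bind the active site and block it. In the heart, fibroblasts, muscle cells and immune cells all contribute to this system, which is best known for remodelling the matrix after injury and in inflammation.

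Total counts were 71202469 to 76668751 per library, with 18308 to 18667 genes detected. Mettl3, the methyltransferase targeted by the small interfering RNA, measured 10.3, 10.6 and 9.90 FPKM in siMettl3 cells, against 18.2, 17.2 and 15.4 FPKM in siNC cells. It was thus lowered to 60.6% of the control and not abolished (log2 fold change -0.80, SE 0.0790, edgeR adjusted p = 0.00293). FPKM is a fragment count scaled by transcript length and by the size of the library. Markers of the labelled cell type were strong: the 10 cardiomyocyte markers summed to 20080 to 23590 FPKM in siMettl3 and 23840 to 27800 FPKM in siNC libraries. Of these markers Actc1 (-0.53, log2 fold change) and Myh7 (-0.33) fell, 0 rose (3 lower and 0 higher at an unadjusted p below 0.05), and limma called 0 of the 10. Of all genes tested in edgeR 6.59% fell and 3.39% rose. In FPKM the sums differed most through Nppa (means 9005 in siMettl3 and 11630 in siNC) and Actc1 (4461 and 6104). Myh6 (2459 and 2303) and Tnnt2 (4010 and 3662) averaged higher in siMettl3, and 6 of the 10 had a log2 fold change below 0.

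Mmp2, the gelatinase that cleaves denatured collagen and basement membrane, fell the most of all members. Mmp14, the membrane-bound protease that activates Mmp2 at the cell surface, fell as well, as did the inhibitors Timp2 and Timp3. The gelatinase Mmp9 and the stromelysin Mmp3 had fold changes above 0 but did not pass the test. Of the 10 members, 8 had a mean of at least 1 FPKM over all libraries and were tested, 5 MMPs and 3 TIMPs. By edgeR 4 of the 8 fell and 0 rose at an adjusted p below 0.05, whereas 6.59% of the 13105 genes tested fell and 3.39% rose. At an unadjusted p below 0.05 the edgeR counts were 5 lower and 1 higher, where 15.0% of all tested genes were lower and 12.5% higher. Without siMettl3 replicate 1 or siNC replicate 1, 1 member (Mmp2) fell. With limma on log2(FPKM + 1), Mmp2 and Mmp14 fell and 0 members rose, against 4.4% of genes lower and 6.53% higher. The median log2 fold change was -0.31 over the 8 members and 0.0025 over all tested genes. The FPKM of the groups did not overlap for 5 of the 8 members with siMettl3 lower and for 1 with siMettl3 higher. Over all genes tested those shares were 11.5% lower and 26.4% higher. The split of all calls depended on scaling: edgeR called 444 genes higher and 864 lower with trimmed-mean (TMM) factors, and 1026 higher and 630 lower with library totals alone. No member changed direction between these scalings.

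**Figure D1:**
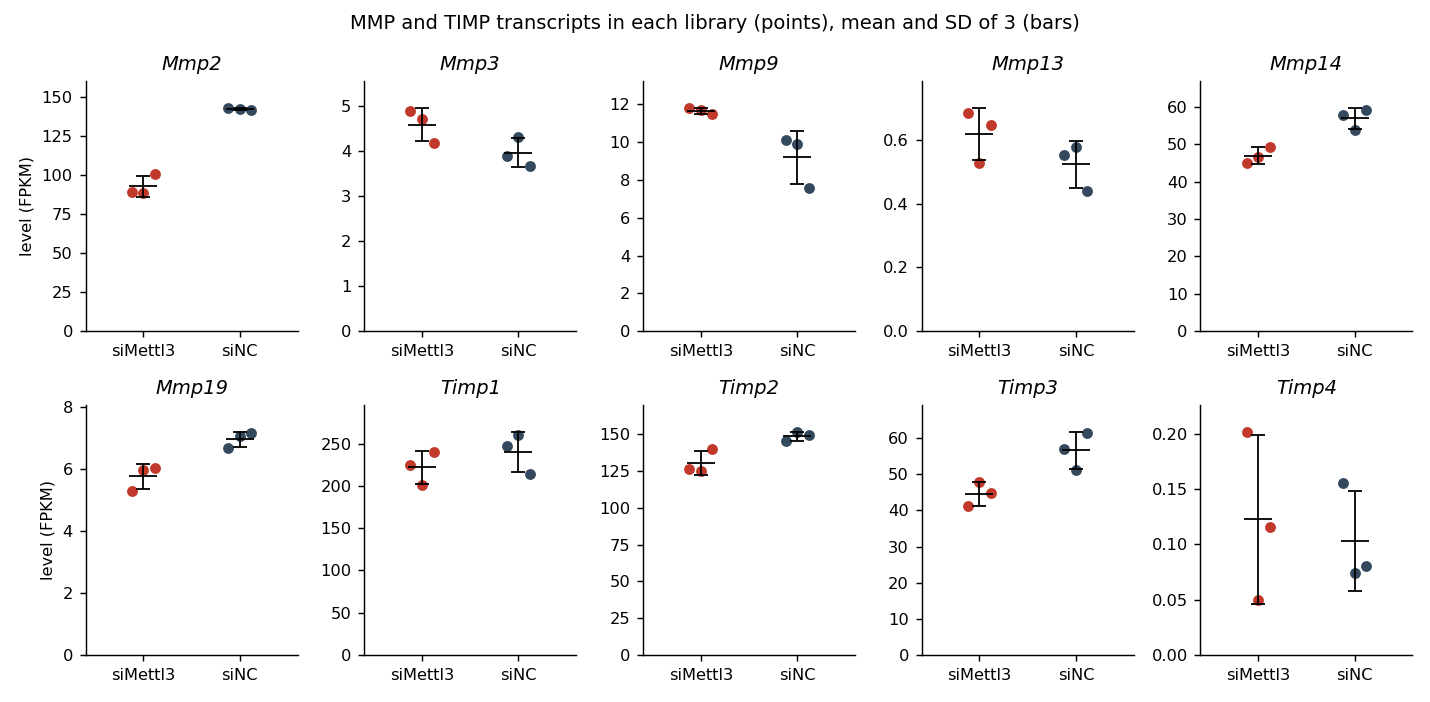
Level of each MMP and TIMP transcript in FPKM (vertical axes, each starting at 0) in the 3 siMettl3 and the 3 siNC libraries. Points are libraries and bars give the mean and SD. The siMettl3 points lie below the siNC points for Mmp2, Mmp14, Mmp19, Timp2 and Timp3 and above them for Mmp9.

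Mmp2 measured 89.0, 88.5 and 101 FPKM in siMettl3 cells, against 143, 142 and 142 FPKM in siNC cells. The siNC libraries were nearly equal, with a coefficient of variation of 0.407%, and all siMettl3 libraries were lower. The deposited counts for these levels were 20832, 20821 and 23038 in siMettl3 and 34650, 33610 and 31927 in siNC libraries. The mean level was 65.1% of that in siNC cells (92.7 ± 6.84 FPKM in siMettl3 and 142 ± 0.579 FPKM in siNC, SD, n = 3 each). The log2 fold change was -0.69 (SE 0.0638, 95% interval -0.84 to -0.54, edgeR adjusted p = 0.00258). The size of this change exceeded that of 96.1% of all tested genes. With any 1 library left out, Mmp2 was still called, with edgeR adjusted p of 0.00595 to 0.0221. Mmp2 (ENSRNOG00000016695) spans chromosome 19, start 15542765 and end 15570611, minus strand, in the coordinates of the table, whose build is not given in the sources used here.

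Mmp14 measured 44.9, 46.6 and 49.3 FPKM in siMettl3 cells, against 57.7, 53.7 and 59.2 FPKM in siNC cells. Its groups did not overlap, although the highest siMettl3 and the lowest siNC library were close. The log2 fold change was -0.35 (SE 0.0600, edgeR adjusted p = 0.0158). The call was lost without siMettl3 replicate 1 (edgeR adjusted p = 0.0690) and without siNC replicate 1 (0.0687).

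Mmp19, a protease of basement membrane components, measured 5.29, 5.99 and 6.02 FPKM in siMettl3 cells, against 6.70, 7.07 and 7.16 FPKM in siNC cells. All siMettl3 libraries were lower, yet the difference stayed just short of the threshold (log2 fold change -0.35, SE 0.0893, edgeR adjusted p = 0.0528). DESeq2 (adjusted p = 0.00948) and limma after median-ratio scaling (adjusted p = 0.0484) placed it below.

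Mmp9, a gelatinase made by leukocytes among other cells, measured 11.8, 11.7 and 11.5 FPKM in siMettl3 cells, against 10.1, 9.93 and 7.60 FPKM in siNC cells. The siMettl3 libraries were nearly equal and above all siNC libraries, among which replicate 3 was low. The log2 fold change of 0.26 (SE 0.112, edgeR adjusted p = 0.178) did not pass. Without siNC replicate 3 it was 0.14.

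Mmp3, stromelysin-1, which cuts many matrix proteins and also activates other MMP precursors, measured 4.89, 4.70 and 4.17 FPKM in siMettl3 cells, against 3.90, 4.32 and 3.68 FPKM in siNC cells. The groups overlapped, and the log2 fold change was 0.14 (SE 0.115, 95% interval -0.13 to 0.40, edgeR adjusted p = 0.483). The log2 fold change was 0.084 without siMettl3 replicate 1 and 0.082 without siNC replicate 3. Mmp13, the collagenase that cuts fibrillar collagen in rodents, was below 1 FPKM in every library, at 0.684, 0.527 and 0.644 FPKM in siMettl3 and 0.552, 0.578 and 0.438 FPKM in siNC cells. These levels rest on 136, 106 and 126 counts in siMettl3 and on 114, 116 and 84 counts in siNC libraries. In a fit of 16544 genes with a lower filter, the log2 fold change of Mmp13 was 0.17 (SE 0.208, 95% interval -0.32 to 0.65, edgeR adjusted p = 0.677). The interval includes 0 and values of either sign, so the direction of a change is not settled.

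Timp1, the soluble inhibitor that inflammatory signals induce, was the most abundant member per transcript length. It measured 225, 201 and 240 FPKM in siMettl3 cells, against 248, 260 and 214 FPKM in siNC cells. The groups overlapped (log2 fold change -0.19, SE 0.0949, 95% interval -0.41 to 0.034, edgeR adjusted p = 0.247). Timp2, which inhibits Mmp2 and, bound to Mmp14, also helps to activate it, measured 126, 125 and 140 FPKM in siMettl3 cells, against 145, 151 and 149 FPKM in siNC cells. Every siMettl3 library was lower, and the log2 fold change of -0.26 (SE 0.0606) passed by a small margin (edgeR adjusted p = 0.0395). That call is fragile. It was kept without siMettl3 replicate 3 (edgeR adjusted p = 0.0412) and lost without siMettl3 replicate 1 (0.139), siMettl3 replicate 2 (0.0983), siNC replicate 1 (0.104), siNC replicate 2 (0.111) and siNC replicate 3 (0.0718). It was also lost with library totals in place of TMM factors (0.0806), with no filter on low genes (0.0599) and in limma on log2(FPKM + 1) (0.0861).

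Timp3, which unlike its relatives binds to the matrix itself, measured 41.3, 47.9 and 44.8 FPKM in siMettl3 cells, against 57.1, 51.1 and 61.5 FPKM in siNC cells. The groups did not overlap, and the log2 fold change was -0.42 (SE 0.0846, edgeR adjusted p = 0.0276). The call was lost without siMettl3 replicate 1 (edgeR adjusted p = 0.0971), siMettl3 replicate 3 (0.0784) or siNC replicate 1 (0.0924), and limma on log2(FPKM + 1) gave an adjusted p of 0.0518. Timp4, the inhibitor known from adult heart muscle, was barely detected, with 27, 7 and 15 counts in siMettl3 and 21, 10 and 10 counts in siNC libraries. Its log2 fold change, from the fit with the lower filter, was 0.20 with a 95% interval of -1.35 to 1.76 (edgeR adjusted p = 0.887), too wide to show a change.

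The spans of the Timp genes overlap those of other genes. In the table Timp1, Timp3 and Timp4 sit within the spans of Syn1, Syn3 and Syn2, genes of synaptic vesicle proteins, on the opposite strand. The span of Cep295nl lies within that of Timp2, on the same strand. The host genes were low, with 157 to 267 counts for Syn1 and 18 to 54 counts for Syn3, and Cep295nl had 23 to 62 counts. Syn2, however, had 247 to 491 counts, more than Timp4 in any library. Whether counting used strand is not given in the sources used here, so the few Timp4 counts cannot be told apart from reads of Syn2.

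**Figure D2:**
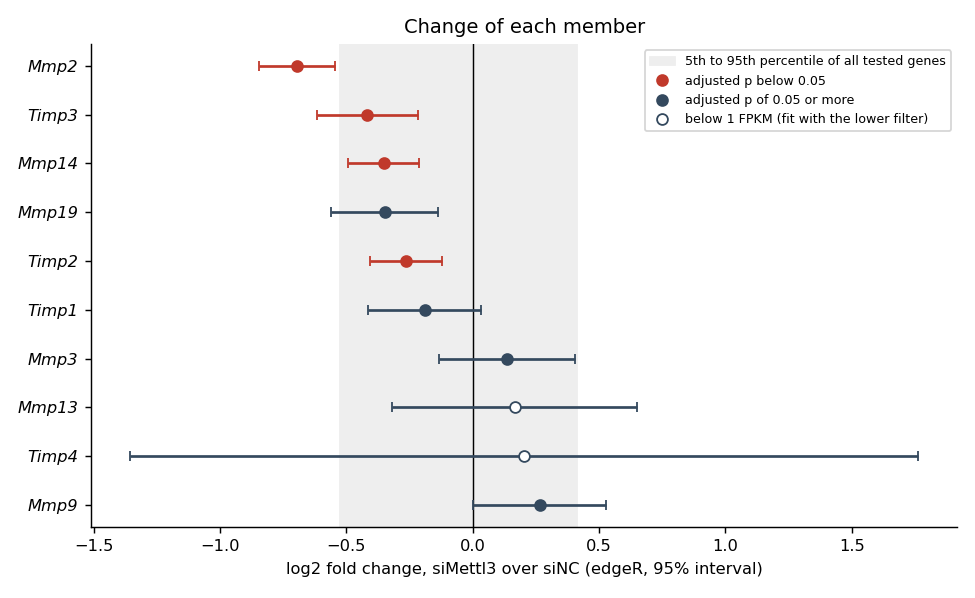
Log2 fold change of siMettl3 over siNC (horizontal axis) with its 95% interval for each member, in edgeR. Red points passed the threshold, open points are the members below 1 FPKM from the fit with the lower filter, and the grey band spans the 5th to 95th percentile of all tested genes, -0.53 to 0.41. Mmp2 is the member whose point lies outside the band.

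RefSeq promoter entries (build GRCr8) were found for 6 of the 10 members: Mmp3, Mmp13, Timp1, Timp2, Timp3 and Timp4. The others are Mmp2, Mmp9, Mmp14 and Mmp19. The 250 bases before the annotated start were searched on both strands for TGANTCA (the site of AP-1, the Fos and Jun factors), TATAAA (the TATA box), GGGCGG (the GC box) and the NF-kB consensus. None of these motifs overlapped another in the members. The windows of Mmp3, which did not pass the test, and of Mmp13, which was too low to be tested, are shown. Beside them are those of Timp2 and Timp3, which fell. These windows were picked because their motifs differ, and a link between motif and change was not tested. Timp1, which did not pass, also held a GC box, and Mmp2 and Mmp14, which fell, have no entry. Letters are 5′ to 3′ on the gene's strand and capitals mark motif matches.
Mmp3, chr8:12925031-12925280, plus strand: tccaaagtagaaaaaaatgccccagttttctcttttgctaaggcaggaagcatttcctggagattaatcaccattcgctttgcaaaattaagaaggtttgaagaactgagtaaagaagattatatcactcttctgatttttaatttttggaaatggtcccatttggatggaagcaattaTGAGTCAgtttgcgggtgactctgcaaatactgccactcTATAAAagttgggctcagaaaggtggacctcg
Mmp13, chr8:12782579-12782828, plus strand: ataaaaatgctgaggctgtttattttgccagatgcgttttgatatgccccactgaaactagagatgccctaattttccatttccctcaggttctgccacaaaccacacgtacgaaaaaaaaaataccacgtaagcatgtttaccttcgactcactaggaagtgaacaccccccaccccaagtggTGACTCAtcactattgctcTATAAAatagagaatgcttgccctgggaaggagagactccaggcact
Timp2, chr10:104089215-104089464, minus strand: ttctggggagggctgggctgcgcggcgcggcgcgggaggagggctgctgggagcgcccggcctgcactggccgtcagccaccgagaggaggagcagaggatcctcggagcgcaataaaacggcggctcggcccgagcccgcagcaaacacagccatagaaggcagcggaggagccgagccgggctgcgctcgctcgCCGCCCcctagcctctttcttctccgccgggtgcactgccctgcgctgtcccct
Timp3, chr7:19459559-19459808, minus strand: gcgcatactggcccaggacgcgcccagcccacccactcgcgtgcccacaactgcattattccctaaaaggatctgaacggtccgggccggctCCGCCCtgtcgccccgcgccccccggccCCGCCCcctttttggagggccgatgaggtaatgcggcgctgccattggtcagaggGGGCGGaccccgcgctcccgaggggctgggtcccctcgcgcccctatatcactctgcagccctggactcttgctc

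In these windows Mmp3 held the AP-1 motif at -71 to -65 and the TATA box at -32 to -27, counted from the start, and Mmp13 held them at -66 to -60 and -47 to -42. Among all 33469 promoter windows of the same length, 6.34% held the AP-1 motif and 12.9% TATAAA. The Timp2 window had a GC box at -54 to -49, Timp3 had them at -158 to -153, -130 to -125 and -75 to -70, and Timp1 had 1 at -142 to -137. The GC box occurred in 30.5% of all windows. The GC content was 38.8% and 44.4% for Mmp3 and Mmp13, and 61.2%, 72.0%, 69.6% and 50.8% for Timp1, Timp2, Timp3 and Timp4, where the median of all windows was 51.2%. The NF-kB consensus, present in 3.54% of all windows, matched none of the 6, which says only that these letters are not in these 250 bases.

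The order of the members by level was the same in both groups: Timp1, Timp2, Mmp2, Mmp14, Timp3, Mmp9, Mmp19, Mmp3, Mmp13 and Timp4, from high to low FPKM. Neighbours in that order did not overlap between libraries of a group, with the exception of Mmp14 and Timp3. In siMettl3 cells this pair spanned 44.9 to 49.3 FPKM for Mmp14 and 41.3 to 47.9 FPKM for Timp3, and in siNC cells 53.7 to 59.2 FPKM and 51.1 to 61.5 FPKM. Mmp2 and Timp2 lay close in siNC cells, at 142 to 143 FPKM for Mmp2 and 145 to 151 FPKM for Timp2, but apart in siMettl3 cells, at 88.5 to 101 FPKM and 125 to 140 FPKM.

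The 6 MMPs together summed to 157, 158 and 172 FPKM in siMettl3 cells, against 222, 218 and 220 FPKM in siNC cells. Most of both sums was Mmp2, which made up 57.1% ± 1.21 of the MMP total in siMettl3 cells and 64.7% ± 0.485 in siNC cells (SD, n = 3 each). Mmp9 made up 7.20% ± 0.464 in siMettl3 cells and 4.19% ± 0.636 in siNC cells. The 4 TIMPs summed to 393, 374 and 425 FPKM in siMettl3 cells, against 450, 462 and 424 FPKM in siNC cells, and these sums overlapped.

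Ratios within a library do not depend on how libraries are scaled to each other. The sum of MMPs over the sum of TIMPs was 0.399, 0.423 and 0.406 in siMettl3 cells, against 0.494, 0.472 and 0.518 in siNC cells. Mmp2 over Timp2 was 0.704, 0.707 and 0.721 in siMettl3 cells, against 0.987, 0.940 and 0.952 in siNC cells. Both ratios were lower in every siMettl3 library. Mmp9 over Timp1 was 0.0525, 0.0582 and 0.0479 in siMettl3 cells, against 0.0409, 0.0382 and 0.0356 in siNC cells, higher in every siMettl3 library. Mmp14 over Timp2 overlapped, at 0.355, 0.372 and 0.353 in siMettl3 cells, against 0.398, 0.355 and 0.397 in siNC cells. The ratios are transcript levels per length and were not tested, since they were formed with the members' values known.

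**Figure D3:**
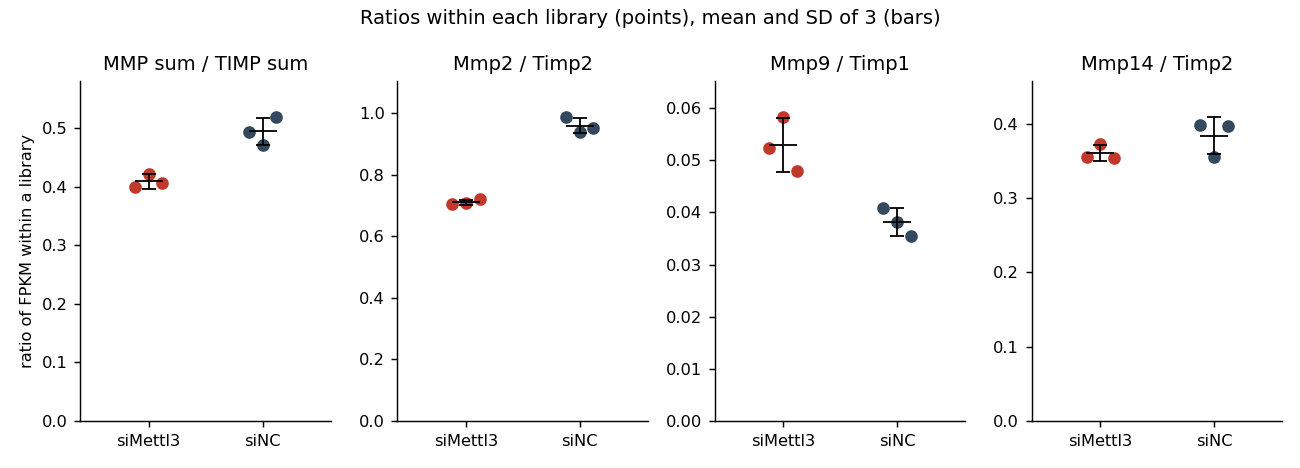
Ratio of FPKM within each library (vertical axes, each starting at 0) for the MMP sum over the TIMP sum and for 3 gene pairs. Points are libraries and bars give the mean and SD of 3. The first pair of panels shows siMettl3 below siNC without overlap, the third shows siMettl3 above, and the last overlaps.

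Fibroblast markers moved in the same direction as Mmp2. Of 14 listed, 13 were found and tested, 10 fell and 0 rose (12 lower and 0 higher at an unadjusted p below 0.05), with a median log2 fold change of -0.68 in edgeR. Their summed level was 953 to 1011 FPKM in siMettl3 and 1544 to 1610 FPKM in siNC libraries. Over all tested genes 6.59% fell and 3.39% rose in edgeR (15.0% and 12.5% at an unadjusted p below 0.05). Mmp2 over Col1a1, a collagen chain that fibroblasts make, was 0.1237, 0.1136 and 0.1327 in siMettl3 cells, against 0.1204, 0.1203 and 0.1167 in siNC cells, which overlap. Relative to the fibroblast marker Lum, Mmp2 also overlapped, at 14.5 to 19.2 in siMettl3 and 16.3 to 19.0 in siNC cells. Relative to Pdgfra it was lower, at 24.3 to 25.5 in siMettl3 cells against 26.1 to 32.0 in siNC cells. The result depends on the marker, and these markers were chosen after their values were seen. Over the 13 tested markers the log2 fold change ran from -1.21 for Fbln2 to 0.12 for Dpt, against -0.69 for Mmp2. The ratios therefore do not show whether Mmp2 kept pace with fibroblast RNA. Mmp14 over Col1a1 was higher, at 0.0598 to 0.0650 in siMettl3 cells against 0.0454 to 0.0487 in siNC cells. In such bulk samples, fewer cells of a type and less RNA per cell cannot be told apart, and the part of fibroblasts in the lower Mmp2 was not tested.

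Of 14 macrophage and leukocyte markers 9 were tested, 8 fell and 0 rose (median -0.77), and their sum was 44.4 to 59.3 FPKM in siMettl3 and 85.6 to 105 FPKM in siNC libraries. None of the 14 was at 0, but Ptprc, the common leukocyte antigen, averaged below 1 FPKM. Mmp9, which leukocytes can make among other cells, had a log2 fold change above 0 (0.26) that did not pass (edgeR adjusted p = 0.178). Neutrophil markers were near absent: Mpo and Elane had a count of 0 in all libraries, the 8 markers summed to 0.684 to 1.54 FPKM in siMettl3 and 2.29 to 2.85 FPKM in siNC libraries, and Camp, the 1 tested, did not pass (log2 fold change -1.48, edgeR adjusted p = 0.0961). The summed level of smooth muscle and pericyte markers came to 3508 to 3778 FPKM in siMettl3 and 4692 to 5301 FPKM in siNC libraries, with 4 of 10 lower and 0 higher. Endothelial markers (20.7 to 21.8 in siMettl3 and 19.4 to 21.1 FPKM in siNC libraries) had 1 fall and 2 rises among 5 tested. Epicardial and mesothelial markers (28.9 to 33.5 in siMettl3 and 25.9 to 26.8 FPKM in siNC libraries) had 1 fall and 1 rise among 5. For each of these lists, the shares over all tested genes were 6.59% lower and 3.39% higher in edgeR. The part of these cells in the members' changes was not tested.

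The 5 genes whose profile over the 6 libraries lay closest to that of Mmp2 were sought among tested genes of at least 5 FPKM, by the root mean square difference of centred log2(FPKM + 1). Ackr3, an atypical chemokine receptor, was closest (difference 0.0189), followed by Aebp1, a collagen-binding matrix protein (0.0279), Stard5, a sterol-binding protein (0.0315), Bgn, the proteoglycan biglycan (0.0324), and Srpx2, a secreted sushi-repeat protein (0.0490). Their edgeR log2 fold changes were -0.80, -0.67, -0.69, -0.69 and -0.67 in that order, against -0.69 for Mmp2. The added 1 compresses the differences of low genes such as Ackr3, which averaged 4.91 FPKM in siMettl3 and 8.13 FPKM in siNC cells. The order without it was not computed. Since the profile of Mmp2 holds the difference between the groups, their direction follows from how they were chosen and is given as a description.

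Of the remaining MMP family, 19 symbols were listed, 15 were found and 8 had enough signal to test. Mmp12, the macrophage metalloelastase, measured 6.07, 5.34 and 6.98 FPKM in siMettl3 cells, against 9.96, 12.9 and 9.72 FPKM in siNC cells. It was the 1 member of this list that fell (log2 fold change -0.90, SE 0.150, edgeR adjusted p = 0.0147), and 0 rose. Without siMettl3 replicate 1 its adjusted p was 0.0615. Mmp23 (-0.38, adjusted p = 0.0777), Mmp28 (-0.47, 0.105) and Mmp17 (-0.23, 0.116) came next by p and did not pass in edgeR. These named genes are all lower, but 4 of the 8 tested had a log2 fold change below 0 and the median was -0.085. The collagenase Mmp1 and Mmp20, Mmp21, Mmp27 and Mmp1b were listed at 0 in all libraries. Mmp7 and Mmp8 were close to 0. Over all tested genes 6.59% fell and 3.39% rose in edgeR.

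Plasmin, which plasminogen activators release from its precursor, activates several MMP precursors. Serpinb2, plasminogen activator inhibitor 2, measured 15.01, 13.61 and 15.47 FPKM in siMettl3 cells, against 8.71, 7.60 and 8.29 FPKM in siNC cells, and rose (0.77, edgeR adjusted p = 0.00371). The call held with any 1 library left out. The activators did not pass: Plat, the tissue type, had a log2 fold change of -0.19 (adjusted p = 0.0738) and Plau, the urokinase type, of 0.23 (adjusted p = 0.312). S100a10, a plasminogen receptor subunit, had -0.33 (adjusted p = 0.0944). Of the 10 tested genes of this list 1 rose, where 3.39% of all tested genes rose in edgeR, and the median log2 fold change was -0.24.

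Among 18 tested activators, inhibitors and co-factors of MMPs 4 fell and 1 rose (median -0.18), where 6.59% of all tested genes fell and 3.39% rose in edgeR. The member that rose was Furin, the convertase that activates Mmp14, at 79.4 ± 9.94 FPKM in siMettl3 and 57.6 ± 1.52 FPKM in siNC cells (SD, n = 3 each, log2 fold change 0.39, edgeR adjusted p = 0.0373). That call was lost in 5 of the 6 fits without 1 library, with adjusted p of up to 0.131, and held without siMettl3 replicate 2. Thbs2, which promotes the uptake of Mmp2, fell (-1.03), as did Tfpi2, a Kunitz-type protease inhibitor (-0.57), in every such fit. The broad protease inhibitor A2m (-1.13) was lost without siMettl3 replicate 1 (0.0596) and siNC replicate 1 (0.0635). The lysosomal cathepsin Ctss (-1.47), which macrophages make, was lost without siNC replicate 1 (0.0583). Reck, a membrane-anchored MMP inhibitor, had 6.69 FPKM in siMettl3 and 6.39 FPKM in siNC cells on average (-0.0092, adjusted p = 0.953).

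Of 22 tested genes that code for matrix substrates of MMPs, 13 fell and 0 rose in edgeR (19 and 0 at an unadjusted p below 0.05), and the median log2 fold change was -0.39. The count was 6 without siMettl3 replicate 1 and 8 without siNC replicate 1, and 11 when any other single library was left out. Col1a1, a chain of fibrillar collagen I, measured 752 ± 30.2 FPKM in siMettl3 and 1196 ± 17.6 FPKM in siNC cells (-0.74, edgeR adjusted p = 0.0020). Col5a2 (-0.77), the adhesion-modulating Tnc (-0.61) and Bgn (-0.69) followed, each called with any 1 library left out. The fibroblast markers Col1a1, Col3a1 and Dcn belong to this list too. Of 15 tested inducers of MMP genes, 7 fell and 0 rose in edgeR (8 and 1 at an unadjusted p below 0.05, median -0.34). The count was 3 without siMettl3 replicate 1 or siNC replicate 1, 4 without siNC replicate 2 and 6 when any other single library was left out. Ccn2, connective tissue growth factor, fell by 1.05, Edn1, endothelin 1, by 0.68 and Tgfb3 by 0.34 on the log2 scale. The cytokine Il1b, a strong inducer of Mmp3, Mmp9 and Mmp13, measured 21.1, 15.6 and 20.9 FPKM in siMettl3 cells, against 36.1, 42.5 and 29.1 FPKM in siNC cells. Its fall (-0.98, edgeR adjusted p = 0.0164) was lost without siMettl3 replicate 1 (0.0517) and siNC replicate 1 (0.0696). For both lists, the shares over all tested genes were 6.59% lower and 3.39% higher in edgeR (15.0% and 12.5% at an unadjusted p below 0.05).

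**Figure D4:**
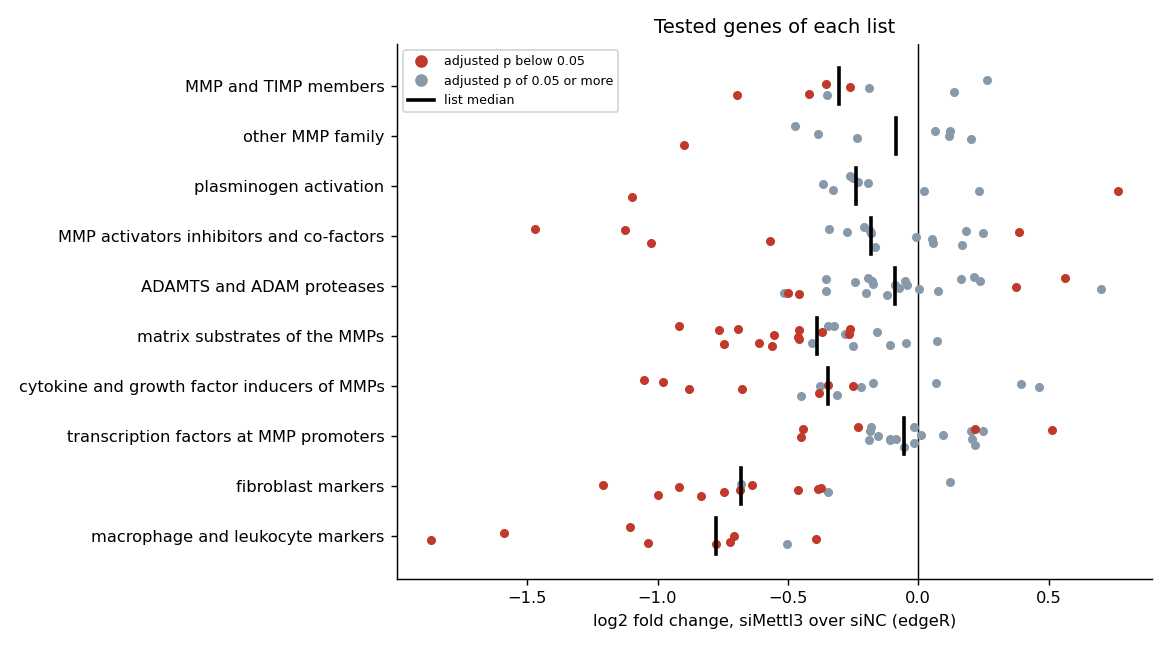
Log2 fold change of siMettl3 over siNC in edgeR (horizontal axis) for the tested members, the 7 lists of related genes and 2 marker lists. Each point is a gene, red where its adjusted p was below 0.05, and the black bar is the list median. The medians run from -0.77 for macrophage and leukocyte markers to -0.053 for transcription factors.

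**Figure D5:**
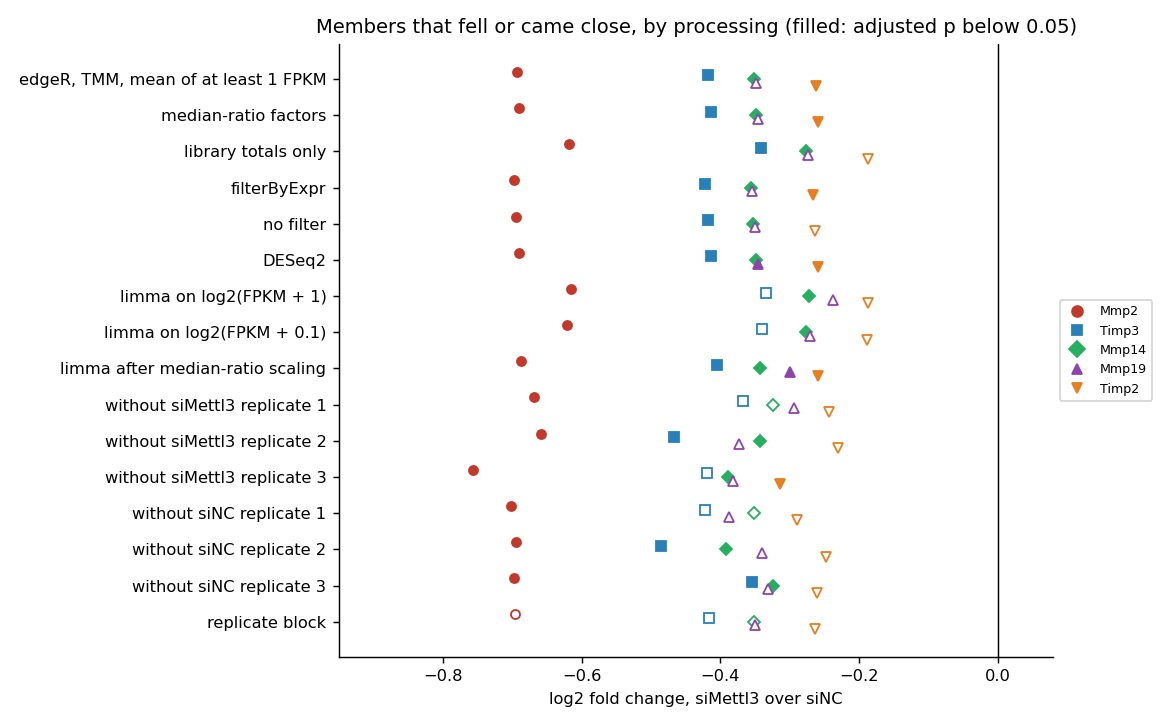
Log2 fold change of siMettl3 over siNC (horizontal axis) of Mmp2, Timp3, Mmp14, Mmp19 and Timp2 under each processing. Filled symbols have an adjusted p below 0.05 and open symbols do not. Every value lies below 0, Mmp2 is filled in all rows except the replicate block, and Timp2 is open in most.

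Over all processings in the plot of fold changes by processing, the log2 fold change ran from -0.76 to -0.62 for Mmp2, from -0.49 to -0.33 for Timp3, from -0.39 to -0.27 for Mmp14, from -0.39 to -0.24 for Mmp19 and from -0.31 to -0.19 for Timp2. Between TMM factors and library totals the log2 fold change of Mmp2 was -0.69 and -0.62, of Mmp14 -0.35 and -0.28, of Timp3 -0.42 and -0.34 and of Timp2 -0.26 and -0.19.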

How the data were processed

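Total RNA from 6 cultures was sequenced as paired ends with Illumina libraries, per the labels' protocols and the series' design text. The authors deposited FPKM per gene (per the file headers), with 0.0001 where the count is 0, and whole-number counts per gene (per the file headers). Per the submitters' processing notes Bowtie 0.12.2 and mm8 were named, without a role; mm8 is a mouse build, whereas the samples and the gene identifiers are of rat. The quantifier, the annotation release, the strand setting and whether the counts are of reads, of fragments or computed from coverage are not given in the sources used here. Where all libraries had 20 counts or more (14527 genes), 98.7% of FPKM values lay within 1% of a constant multiple of the count over the library total. Replicates of a group differed by more than sampling noise, with a chi-square per degree of freedom of 19.3 to 53.9.

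The 13105 genes averaging 1 FPKM or more were tested, siMettl3 against siNC, with edgeR 4.0.16 (quasi-likelihood, TMM, 2-sided, R 4.3.3), with Benjamini-Hochberg adjustment over all of them and a threshold of 0.05. Standard errors are the log2 fold change over the root of F. The code was tested on simulated data. Alternatives were limma 3.58.1 on log2(FPKM + 1) and on log2(FPKM + 0.1), whose fold changes are compressed for low genes, limma after median-ratio scaling, DESeq2 1.42.0, other edgeR factors and filters, a replicate block and each library left out. FPKM carries no correction for composition.

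The 10 members and all lists were chosen with earlier results of these data known. The text names all members, Mettl3, up to 4 genes of each list by smallest p and all that were called where 5 or fewer were, and the 5 genes nearest in profile to Mmp2. A result that this rule would name is not reported here. Where a ratio or a gene outside that rule is named (Plau, Reck, Mmp7, Mmp8, the absent MMPs, the AP-1 genes and marker genes), it was chosen after its values were seen.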

Additional observations from a re-analysis of the deposited data

How the results depend on the processing

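The log2 fold changes of all 10 members and Mettl3 kept their direction under every alternative that gave a value. The number of members lower was 4 in edgeR, also with median-ratio factors or the lower filter, 3 with library totals or no filter, 5 in DESeq2 and in limma after median-ratio scaling, and 2 in limma on log2(FPKM + 1) or log2(FPKM + 0.1), with 0 higher throughout. Without 1 library it was 1 to 3, the lowest without siMettl3 replicate 1 or siNC replicate 1. Mmp13 and Timp4 had values only with the lower filter or with none.

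Of all genes, 1308 were called in edgeR, 2394 in DESeq2 and 344 to 1066 without 1 library. The calls over the 7 related lists were 37, with 59 in DESeq2 and 16 to 31 without 1 library. Leaving out a library lowers the power by construction.

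The labels number the replicates of both groups, but same-numbered libraries did not deviate together (correlations 0.035, -0.255 and -0.119), so the numbers are not taken to pair them. With the replicate number as a block, 0 members, 64 genes and 7 list genes were called, and Mmp2 had a log2 fold change of -0.70 with an edgeR adjusted p of 0.0535. At an unadjusted p below 0.05 that fit had 5 members lower and 1 higher, against 11.2% and 8.0% of all tested genes.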

Other observations

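The ADAM and ADAMTS families are related metalloproteases that shed membrane proteins and cut proteoglycans and procollagens. Of 23 tested, 2 fell, 2 rose and the others did not pass in edgeR, where 6.59% of all tested genes fell and 3.39% rose, and the median log2 fold change was -0.090. Adam9, a membrane sheddase, measured 13.9 ± 0.142 FPKM in siMettl3 and 18.7 ± 1.44 FPKM in siNC cells (SD, n = 3 each, -0.50, edgeR adjusted p = 0.00871) and was called with any 1 library left out. Adamts8 fell (-0.46) but was lost without siMettl3 replicate 1 (0.0834), siNC replicate 1 (0.0793) and siNC replicate 2 (0.0564). Adamts3, a procollagen N-propeptidase, and Adamts7 rose (0.56 and 0.37), each called in 1 of the 6 fits without a library, with adjusted p of up to 0.125 and 0.0997 in the others.

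Of 21 tested transcription factors that act at MMP promoters, 3 fell and 2 rose in edgeR (median -0.053). This split depended on the processing, with 2 lower and 5 higher by library totals, 2 lower and 4 higher in limma on log2(FPKM + 1), and 5 lower and 5 higher in DESeq2. Of all 13105 tested genes 6.59% were lower and 3.39% higher in edgeR, and 4.4% and 6.53% in limma on log2(FPKM + 1). By library totals 630 of them were lower and 1026 higher. Egr1, an immediate early zinc-finger factor, measured 40.3 ± 2.74 FPKM in siMettl3 and 26.8 ± 1.37 FPKM in siNC cells (SD, n = 3 each, 0.51, edgeR adjusted p = 0.00806), with the call kept in all fits without 1 library. Smad3, a mediator of TGF-beta signals, rose by 0.22 and Etv5 fell by 0.23 on the log2 scale, and both were lost whichever library was left out (adjusted p of up to 0.178 and 0.112). Ets1 (-0.45) was lost without siMettl3 replicate 1 (0.0607) and siNC replicate 1 (0.0623), and Atf3 (-0.44) without those libraries and siNC replicate 2 (0.0756, 0.101 and 0.0644 in that order). Of the AP-1 genes Fos, Jun, Junb, Jund, Fosl1 and Fosl2, 0 passed in edgeR, where Jund (0.20) and Jun (0.25) had an unadjusted p of 0.00678 and 0.0170. Jund rose in limma on log2(FPKM + 1) (0.27, adjusted p = 0.0233).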
